A study of Homo sapiens with 24 samples.

Results

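The baseline of Clone 35 was described from its 4 precision run-on sequencing (PRO-seq) libraries treated with the vehicle DMSO, which are 4 of the 12 DMSO libraries and of the 24 libraries in all. They were taken by their sample labels and set against the 4 DMSO libraries of Clone 28 and the 4 of Clone 39. PRO-seq sequences nascent RNA at the position of engaged RNA polymerase, so a read count for a gene reflects polymerase on that gene and not the amount of mature transcript. All 3 clones were derived from T47D, a human luminal breast cancer cell line that expresses the estrogen receptor (ER), and carry a dTAG degron sequence at the native *TRPS1* gene. The degron lets the small molecule dTAG-13 direct the tagged protein to the proteasome. The clones share one history: a first round of editing with puromycin selection gave a clone in which no insertion was found in *TRPS1*, and cells of that clone went through a second round with hygromycin selection. Not every copy of the gene still works in these clones, and none of them makes TRPS1 without the tag. DMSO was given at 0.1% by volume for 90 minutes, and the other 12 libraries, given 100 nM dTAG-13 for the same time, were used here only as a second set of libraries in which to look at the same differences. The 4 replicate numbers stand for sets of cultures that were treated and harvested one after another within a day. Each line is 1 clone, so the p-values below measure the spread between cultures of 1 clone and not the spread between clones, and no untagged T47D library was compared.

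TRPS1 is a GATA-type zinc finger protein of the luminal mammary lineage that acts mainly as a transcriptional repressor. Luminal breast cells are held in their state by a small set of transcription factors, among them ER (*ESR1*), GATA3 and FOXA1, and the progesterone receptor gene *PGR* is a textbook target of estrogen-bound ER. Clones picked as single cells from a cancer cell line can differ from each other in gene expression and in chromosome content before any treatment is given. A gene was called specific to Clone 35 when it differed in the same direction from Clone 28 and from Clone 39, each at an adjusted p under 0.1 (edgeR's quasi-likelihood test with replicate number as a block and Benjamini-Hochberg adjustment over all 21254 genes tested). Both contrasts use the same 4 Clone 35 libraries, so they are not independent of each other.

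The total count per library was 4287721 to 7106656 in Clone 35, 4185233 to 5108645 in Clone 28 and 3626852 to 5192713 in Clone 39. Levels are given as CPM (counts per 1000000 counts of a library, scaled for composition with the TMM method) and were compared between libraries and not between genes. The 10 luminal markers together came to 4045 to 5040 CPM in the Clone 35 libraries, 5078 to 6373 in Clone 28 and 4719 to 5748 in Clone 39, so that Clone 35 lay below Clone 28 and overlapped Clone 39. This sum mostly follows the markers with the most reads. *PGR* had means of 1895, 1158 and 1771 CPM in Clones 28, 35 and 39, and *ESR1* 1639, 1431 and 1645. It is therefore not a measure of the luminal markers as a set. All 4 of the marker lists (luminal, basal, mesenchymal and immune) had reads for every marker, and in Clone 35 the sums were 30.11 to 34.96 CPM for 5 basal markers, 28.39 to 32.69 for 7 mesenchymal markers and 5.113 to 7.32 for 4 immune cell markers. The basal and immune sums overlapped among the 3 clones, and the mesenchymal sums of Clone 35 lay below those of Clone 39 (32.93 to 40.49). The tagged gene itself, *TRPS1* on chromosome 8 (hg38 115408496 to 115809673, minus strand), stood at 7838, 7531, 5820 and 5571 CPM in Clone 35 replicates 1 to 4. The means were 6279 CPM in Clone 28, 6690 in Clone 35 and 7401 in Clone 39, which places Clone 35 between the others (log2 difference 0.09 from Clone 28, adjusted p = 0.00225, and −0.15 from Clone 39, adjusted p = 2.22e-07, edgeR's quasi-likelihood test).

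Clone 35 stood nearer to Clone 28 than to Clone 39. The test called 3006 genes against Clone 28, which is 14.1% of those tested (1237 higher in Clone 35, 5.82%, and 1769 lower, 8.32%). Against Clone 39 it called 7059 genes, or 33.2% (3760 higher, 17.7%, and 3299 lower, 15.5%). The median absolute log2 difference was 0.112 between Clones 35 and 28, 0.161 between Clones 35 and 39 and 0.186 between Clones 28 and 39. In a principal component analysis of the 12 libraries, the first component (36.7% of the variance) separated Clone 39 from the rest, the second (17.1%) followed the replicate number, and the third (10.1%) separated Clone 35 from Clone 28.

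The genes specific to Clone 35 numbered 936, or 4.4% of those tested, against 1771 (8.33%) for Clone 28 and 5094 (24%) for Clone 39 by the same rule. In Clone 35, 418 of them were higher (1.97%) and 518 lower (2.44%). Most of the differences were small: the smaller of the 2 log2 differences had a median of 0.34 among the higher genes and −0.25 among the lower ones, and it was at least 1 in size for 19 higher and 20 lower genes. The 4 Clone 35 libraries lay wholly above the other 8 for 174 of the 418 higher genes (41.6%; 1.17% of all genes tested) and wholly below them for 154 of the 518 lower genes (29.7%; 0.993% of all genes tested). Protein-coding genes made up 320 of the higher and 391 of the lower set, and long noncoding RNA genes 79 of each. Without the replicate block 135 higher and 147 lower genes were called, and DESeq2 called 108 and 197. The split between the directions turned with the scaling: 44.7% of the specific genes were higher with TMM, 42% with DESeq2's size factors and 58.3% with library totals alone.

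The dTAG-13 libraries gave a second look at the same genes in cultures that the rule had not used. Of the 936 genes, 933 could be tested there, and 478 (51.2%) were again specific to Clone 35 in the same direction, 230 of 417 higher genes (55.2%) and 248 of 516 lower genes (48.1%). Among all genes of that fit 2.34% were specific and higher and 2.24% specific and lower. None of the 933 was specific in the opposite direction. By sign alone, 825 of 933 (88.4%) lay on the same side of both other clones, whereas 26.9% of all genes lay above both clones and 28.6% below both in dTAG-13. The largest differences were met again no more often. Of 39 genes whose smaller log2 difference was at least 1, 37 could be tested. Among these, 20 (54.1%) were again specific and 27 (73%) lay on the same side of both. No gene differed between the treatments in its Clone 35 contrast at an adjusted p under 0.1 (edgeR's quasi-likelihood interaction test on all 24 libraries, 22326 genes). At an unadjusted p under 0.05 the interaction gave 1109 genes against Clone 28 and 1030 against Clone 39. By chance a fraction of 0.05 of the 22326 genes would pass this limit, and neither count is above that.

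**Figure D1:**
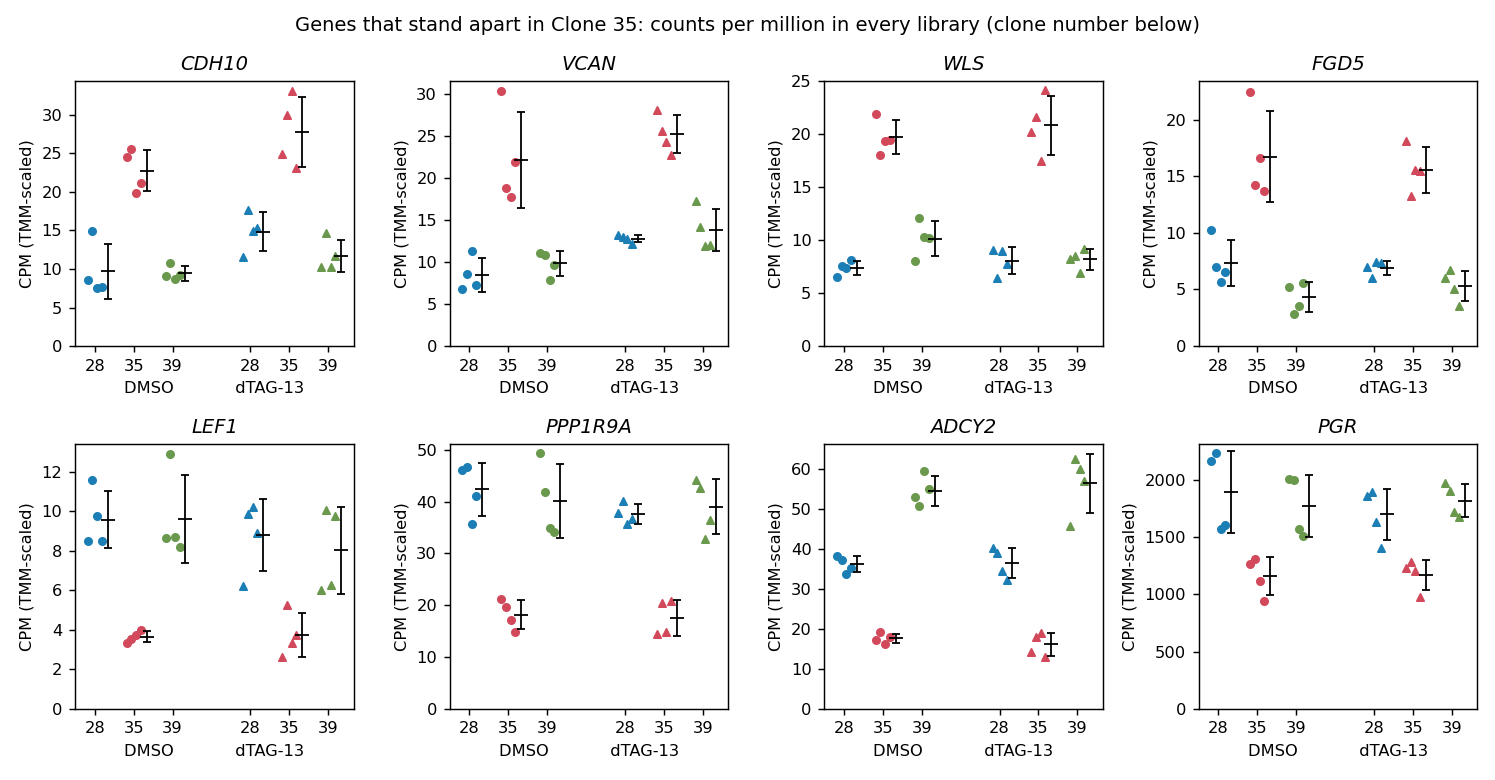
The plot of genes by library gives TMM-scaled CPM on a linear axis from 0 for 8 genes specific to Clone 35, with 1 point for each library (circles DMSO, triangles dTAG-13), coloured by clone, and the mean ± SD of each group beside its points. In DMSO the Clone 35 points for *CDH10* sit at 19.8 to 25.5 CPM, above all 8 others, and those for *LEF1* at 3.34 to 4.01, below all 8.

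The genes with the largest rises included several that encode proteins of the cell surface or its matrix. *CDH10*, a type II cadherin of cell-cell adhesion (chromosome 5, 24487100 to 24644978), had 24.6, 25.5, 19.8 and 21.1 CPM in Clone 35 replicates 1 to 4, 8.51, 14.9, 7.58 and 7.70 in Clone 28 and 9.04, 10.8, 8.67 and 9.18 in Clone 39. The lowest Clone 35 library lay above the highest of the others, with log2 differences of 1.23 ± 0.132 (SE) from Clone 28 and 1.27 ± 0.134 from Clone 39 (adjusted p = 3.27e-11 and 2.87e-12, edgeR's quasi-likelihood test, n = 4 libraries a clone). *VCAN*, which encodes the matrix proteoglycan versican, had 30.3, 18.7, 17.7 and 21.8 CPM in Clone 35 and at most 11.3 in any other library. *WLS*, which carries Wnt ligands to the cell surface, stood at 18.1 to 21.9 CPM in Clone 35 and at most 12.1 elsewhere, with log2 differences of 1.40 and 0.96.

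The other rises belong to signalling, lipid and zinc finger genes. *FGD5*, an exchange factor for the small GTPase Cdc42, had 13.7 to 22.4 CPM in Clone 35 and no more than 10.3 in the other libraries (log2 differences 1.19 and 1.92). *PDE4A*, a phosphodiesterase that breaks down cyclic AMP, had 9.30 to 12.7 CPM against at most 6.50. Among carriers and enzymes of small lipophilic molecules, *APOD* (apolipoprotein D) had means of 7.94, 15.9 and 3.02 CPM in Clones 28, 35 and 39, and *UGT2B15*, which glucuronidates androgens, 4.00, 7.66 and 2.83. *APOD* thus differed much more from Clone 39 (log2 2.36) than from Clone 28 (log2 0.99). *ZNF679*, *ZNF479* and *ZMAT4*, all zinc finger genes, rose by 1.46, 1.88 and 0.94 against Clone 28 and by 1.09, 1.27 and 0.92 against Clone 39 on the log2 scale. *ZNF479* was at only 2.17 to 2.86 CPM in Clone 35 and is uncertain, as are *ZNF679* and *UGT2B15*, because these genes have near-identical relatives among which reads can be split. *FGD5* and *APOD* lie in stretches of chromosome 3 that were higher as a whole than in Clone 39.

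*LEF1*, the transcription factor that pairs with β-catenin in Wnt signalling, was among the 12 genes with the largest falls (chromosome 4, 108047545 to 108168956, minus strand). It stood at 3.34, 3.55, 3.72 and 4.01 CPM in Clone 35, at 8.51, 11.6, 9.74 and 8.48 in Clone 28 and at 8.64, 12.9, 8.67 and 8.18 in Clone 39. Every Clone 35 library was below every other library, with log2 differences of −1.37 ± 0.19 and −1.37 ± 0.192 (adjusted p = 8.09e-08 and 2.09e-08, edgeR's quasi-likelihood test). *ADCY2*, an adenylyl cyclase that makes cyclic AMP, stood at 17.2, 19.1, 16.3 and 17.8 CPM in Clone 35, at 33.8 to 38.3 in Clone 28 and at 50.5 to 59.4 in Clone 39. The 3 clones did not overlap for *ADCY2*, and the log2 differences were −1.03 and −1.63. The cation channels *TRPM8* and *TRPV4* fell by 1.13 and 0.92 against Clone 28 and by 1.17 and 1.10 against Clone 39 on the log2 scale, and *ANO5*, of the anoctamin membrane protein family, fell by 0.92 and 0.77. *SLC16A9*, of the monocarboxylate transporter family, had means of 14.1, 7.62 and 18.4 CPM in Clones 28, 35 and 39.

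The remaining genes with large falls encode cytoskeletal, surface and metabolic proteins. *PPP1R9A*, which encodes the actin-binding neurabin, stood at 14.8 to 21.2 CPM in Clone 35 and at 34.1 to 49.4 in the other 8 libraries. *ANTXR2*, a receptor for matrix proteins and anthrax toxin, stood at 5.66 to 8.95 CPM against 15.4 to 21.7. *CA8*, a carbonic anhydrase relative without the enzyme activity, stood at 14.6 to 17.8 CPM against 27.9 to 38.97, and *SYBU*, which encodes the transport adaptor syntabulin, at 10.3 to 14.9 against 18.1 to 33.02. All of these groups were apart, with log2 differences from −0.76 to −1.35. *AMPD3*, an AMP deaminase, fell by 0.79 and 1.14 on the log2 scale. *CORT* (cortistatin) was at 1.43 to 2.17 CPM in Clone 35, its reads cannot be told from those of the overlapping *CENPS-CORT*, and its call was not met again in dTAG-13.

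The rule that picked these 24 genes, 12 in each direction, asked for the same direction in dTAG-13, so their values there are a description: 22 were again specific to Clone 35, and *CORT* was not. Leaving out any 1 of the 12 DMSO libraries kept 21 of the 24 calls in every fit. *ZNF479* lost its call without Clone 35 replicate 4 or Clone 39 replicate 4, and *CORT* lost its call in some of these fits. The sources used here do not give the strand setting of the gene counting, so reads of a gene and of a partner on the opposite strand cannot be told apart, which touches, among others, *LEF1*, *FGD5*, *VCAN*, *SYBU*, *PPP1R9A*, *PGR* and *MYB* (each with its own antisense gene), *WLS* (with *GNG12-AS1*) and *PDE4A* (with *CDC37*).

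Among luminal genes, *PGR* stood lower in Clone 35 than in both other clones. It had 1262, 1313, 1115 and 943 CPM in Clone 35, 2167, 2236, 1571 and 1604 in Clone 28 and 2004, 2002, 1571 and 1508 in Clone 39. Every Clone 35 library was below all 8 others, and the log2 differences were −0.70 ± 0.0342 and −0.61 ± 0.0342 (adjusted p = 6.57e-17 and 2.87e-16, edgeR's quasi-likelihood test). *ESR1* had 1583, 1582, 1356 and 1204 CPM in Clone 35 against 1430 to 1919 in Clone 28 and 1451 to 1820 in Clone 39. Here the groups overlapped, because the level followed the replicate number in all 3 clones, and the difference within replicate numbers was −0.20 against each clone, a call that was lost without the replicate block. *PGR* and *ESR1* were the 2 specific genes of the 10 luminal markers, beside 2.44% of all genes lower, and were again specific in dTAG-13. The list as a whole was not lower than in both clones. Against Clone 28, 4 markers were called lower and 0 higher (median −0.07), and against Clone 39, 3 lower and 5 higher (median 0.06). *KRT18* (log2 0.49), *CDH1* (0.40) and *KRT8* (0.32) were among those higher than in Clone 39, and *KRT19* passed neither test. *KRT8* and *KRT18* lie in a stretch of chromosome 12 that was higher as a whole than in Clone 39 (median 0.31). *GATA3* lies in such a stretch of chromosome 10 (median 0.31). *GATA3*, at a mean of 834 CPM, lay between Clone 28 (909) and Clone 39 (756), and *FOXA1* (148 CPM) did not pass the test against Clone 28.

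The upstream sequences of *PGR*, of *CDH10* and of *LEF1* are shown because these are leading members for which RefSeq (GRCh38.p14) lists a promoter, and because TRPS1 binds GATA motifs. Each run is the 250 bases before a transcription start, on the strand of the gene, and capitals mark the GATA motif searched, GATA with A or T before it and A or G after it, on either strand.
PGR, chr11:101129814-101130063, minus strand: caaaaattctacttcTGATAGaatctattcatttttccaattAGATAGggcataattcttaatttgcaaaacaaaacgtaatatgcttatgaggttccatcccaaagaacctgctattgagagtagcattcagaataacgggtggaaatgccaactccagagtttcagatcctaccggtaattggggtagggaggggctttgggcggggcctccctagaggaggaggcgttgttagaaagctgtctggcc
CDH10, chr5:24644979-24645228, minus strand: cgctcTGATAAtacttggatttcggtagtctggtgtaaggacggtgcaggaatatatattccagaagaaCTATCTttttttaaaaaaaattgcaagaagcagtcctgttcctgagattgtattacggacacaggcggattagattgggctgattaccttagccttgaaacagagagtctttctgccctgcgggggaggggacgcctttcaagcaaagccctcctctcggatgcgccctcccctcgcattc
LEF1, chr4:108166302-108166551, minus strand: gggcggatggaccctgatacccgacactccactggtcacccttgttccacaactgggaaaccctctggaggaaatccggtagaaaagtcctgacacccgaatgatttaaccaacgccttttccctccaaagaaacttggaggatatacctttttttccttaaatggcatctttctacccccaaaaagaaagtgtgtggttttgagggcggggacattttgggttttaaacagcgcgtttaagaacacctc
The *PGR* window lies before the most upstream of 3 listed starts. The *LEF1* window lies before its only listed start, which is inside the gene as annotated (minus strand, from 108168956). It is therefore not the sequence upstream of the whole *LEF1* gene. *PGR* and *CDH10*, which differ in opposite directions, hold 2 GATA motifs each, and the *LEF1* window holds none. Of 34941 promoter windows of this length, 22.4% hold such a motif. The ER half-site AGGTCA, on either strand, is in none of the 3 windows and in 12.1% of all windows.

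Of 19 luminal lineage transcription factors, 5 were specific and lower (*PGR*, *ESR1*, *MYB*, *RUNX1* and *GRHL2*) and none was specific and higher, beside 2.44% and 1.97% of all genes. The list medians were −0.12 against Clone 28 and 0.10 against Clone 39, where 7 of its genes were called higher and 8 lower. Without the replicate block *ESR1*, *RUNX1* and *GRHL2* lost their calls and 2 of the 5 were left. *MYB*, a proto-oncogene transcription factor of ER-positive cells, stood at 21.7, 19.9, 20.9 and 18.9 CPM in Clone 35, below 32.7 to 45.5 in Clone 28 and 23.3 to 28.9 in Clone 39. *RUNX1* and *GRHL2*, transcription factors active in mammary epithelium, fell by 0.18 and 0.14 against Clone 28 and by 0.36 and 0.41 against Clone 39 on the log2 scale, with overlapping libraries. Of 29 estrogen-induced genes tested, 8 were specific and lower (beside 2.44% of all genes), namely *PGR*, *MYB*, *CXCL12*, *AGR3*, *NRIP1*, *AGR2*, *TPD52L1* and *GREB1*, and *AREG* was specific and higher. The medians of that list were −0.10 against Clone 28 and −0.29 against Clone 39, where the medians over all genes were 0.002 and −0.00279. Without the replicate block 3 genes of the list were lower and by DESeq2 4, while the dTAG-13 libraries gave 11 lower genes of this list. *AREG*, which encodes the epidermal growth factor receptor ligand amphiregulin, stood at 15.99, 24.2, 33 and 42.7 CPM in Clone 35 and overlapped both clones, and its log2 differences of 0.61 and 0.72 were taken within replicate numbers. The *AREG* call was lost without the replicate block and was not met again in dTAG-13 (log2 0.37 against Clone 28).

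Among 36 nuclear receptors tested, 4 were specific and lower (2.44% of all genes were) and 1 higher (1.97%). The counts were 2 lower and 1 higher with no replicate block. *NR3C2*, the mineralocorticoid receptor, stood at 12.6, 22.8, 19.5 and 19.5 CPM in Clone 35 and at 23.0 to 29.0 in the other libraries, without overlap though with little distance. *NR5A2* (LRH-1) was at 41.9 CPM against 48.8 in Clone 28 and 84.6 in Clone 39, so that most of its difference was from Clone 39, and its call was lost in 8 of 22 other settings and not met again in dTAG-13. *VDR*, the vitamin D receptor, was higher, at 141 to 166 CPM against 115 to 134 in the other 8 libraries. *IRS1*, the docking protein of insulin and insulin-like growth factor receptors, was the only specific gene of 16 growth factor receptor genes, beside 1.97% of all genes higher. It stood at 107 to 136 CPM against 81.1 to 103.

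A pair of ER target gene lists came from the study, which chose them by their response to TRPS1 depletion in its own PRO-seq data, so neither gives independent evidence of direction. Of 65 ER targets activated by depletion, 6 were specific and higher in untreated Clone 35 and 9 lower, beside 1.97% and 2.44% of all genes, with medians of −0.01 and 0.03. The largest rise among them was that of *FSIP1*, the fibrous sheath interacting protein gene, at means of 99.0, 159 and 37.3 CPM in Clones 28, 35 and 39. *GATA4*, a transcription factor best known from heart and endoderm, was at 10.9 CPM against 7.84 and 2.57. The *GATA4* call was lost in 8 of 21 other settings, with DESeq2 and without the block among them. It was not met again in dTAG-13 (log2 0.15 against Clone 28). *PHLDA1* and *LINC02457* stood lower by 0.42 and 0.41 against Clone 28 and by 0.95 and 0.85 against Clone 39. Of 57 ER targets repressed by depletion, 1 was specific and higher and 11 lower, beside the same shares. *IL6ST*, the shared gp130 receptor chain of interleukin 6 family cytokines, had means of 283, 200 and 295 CPM (log2 differences −0.50 and −0.56). Without the replicate block these counts were 2 higher and 2 lower for the activated list and 0 higher and 6 lower for the repressed list.

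Of 30 G2/M and mitosis genes, 24 passed the test as lower than in Clone 28 and none as higher, beside 8.32% of all genes called lower. Against Clone 39, 8 passed as lower and 2 as higher, beside 15.5% and 17.7% of all genes. The rule on both clones was met by 7 genes (*CENPE*, *PRC1*, *ASPM*, *ANLN*, *TOP2A*, *AURKA* and *KIF11*), beside 2.44% of all genes, and the list medians were −0.29 and −0.12. *CENPE*, a kinetochore motor protein, stood at 28.4, 41.0, 39.7 and 42.5 CPM in Clone 35, at 45.0 to 63.1 in Clone 28 and at 47.4 to 54.1 in Clone 39. Its Clone 35 libraries were the lowest of the 12. Of 32 G1/S and replication genes, 21 were lower than in Clone 28 and 0 higher, beside 8.32% and 5.82% of all genes. Against Clone 39, 4 were lower and 4 higher, beside 15.5% and 17.7%, with a median of −0.0094. *TYMS* and *CDC45* were lower than in both clones, beside 2.44% of all genes. These counts rest on the replicate block: without it 3 G2/M genes and 2 G1/S genes were lower than in Clone 28, and 1 G2/M gene was specific to Clone 35. DESeq2 called 3 G2/M genes specific, and with replicates 3 and 4 alone the median against Clone 39 was −0.004, with 4 genes lower and 5 higher. Without Clone 39 replicate 1 the 7 specific G2/M genes became 4. In dTAG-13 *CENPE*, *ASPM*, *ANLN* and *TYMS* were again specific and lower, whereas *PRC1*, *TOP2A* and *CDC45* were not specific. *CDC45* lost its call in 13 of 22 other settings and *TYMS* in 5, with DESeq2 and the fit without the block among them for both.

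Interferon and antigen presentation genes placed Clone 35 between the other clones. Of 46 tested, 24 were higher than in Clone 28 and none lower (median 0.31), beside 5.82% and 8.32% of all genes. Against Clone 39, 20 were lower and 5 higher (median −0.23), beside 15.5% and 17.7%. With no replicate block 15 were higher than in Clone 28, and by DESeq2 12. *UBE2L6*, the conjugating enzyme of the ubiquitin-like ISG15, and *PARP9*, an ADP-ribosyltransferase family member of interferon signalling, were higher than in both, a share of the list (4.35%) close to the 4.4% of all genes that were specific. *PARP9* stood at 48.2, 52.4, 48.0 and 52.6 CPM in Clone 35, above 28.6 to 32.95 in Clone 28 and 37.5 to 42.3 in Clone 39. Neither *UBE2L6* nor *PARP9* was again specific in dTAG-13, where 22 genes of the list were higher than in Clone 28 and 23 lower than in Clone 39. The antiviral GTPase gene *MX1*, chosen after its values were seen, showed the order plainly, with 46.8 to 71.6 CPM in Clone 35, 23.6 to 41.0 in Clone 28 and 106 to 146 in Clone 39. *IFIT1*, likewise chosen afterwards, had means of 3.98, 14.3 and 32.0 CPM in Clones 28, 35 and 39.

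Adhesion genes moved in both directions. Of 40 cadherin and protocadherin genes, *CDH10*, *PCDH7*, *PCDHA2* and *PCDHA3* were specific and higher and *CDH12* specific and lower, beside 1.97% and 2.44% of all genes. *PCDH7* stood at 64.6 to 80.9 CPM in Clone 35 against 51.5 to 58.9 in Clone 28 and 26.9 to 43.6 in Clone 39. *CDH12*, which lies near *CDH10* on chromosome 5, went the other way, at 14.4 to 18.4 CPM in Clone 35 against 19.5 to 28.02 and 27.4 to 38.97. The *PCDHA* differences were small (0.16 and 0.15 for *PCDHA2*), and reads of that cluster cannot be assigned to 1 of its overlapping genes. *PCDHA2* lost its call in 13 of 22 other settings, with DESeq2 and without the block among them. It was not specific in dTAG-13 (log2 0.02 against Clone 28). *CDH1*, which encodes the epithelial cadherin, was at 352 CPM in Clone 35 and 338 in Clone 28 and did not pass that test. It was higher than in Clone 39 (267 CPM, log2 0.40). Of the other epithelial genes, *KRT80* was the only specific keratin of 9 (114 to 127 CPM against 76.9 to 103), *TP63* of the basal marker list was called higher (16.7 CPM against 13.3 and 7.68), and *GRHL2* was the only gene of 15 epithelial-mesenchymal regulators that was specific. These single genes stand beside 1.97% of all genes specific and higher and 2.44% specific and lower. The *TP63* call was lost in 12 of 22 other settings, with DESeq2, without the block and without any 1 Clone 35 library among them, and in dTAG-13. Only 2 basal markers could be tested, and the other, *EGFR*, went the other way. *EGFR* stood at 13.5 to 16.7 CPM in Clone 35, 16.8 to 20.7 in Clone 28 and 19.3 to 27.9 in Clone 39. It was called lower than in Clone 39 but not than in Clone 28. None of the mesenchymal, immune, cancer-testis or immediate early genes was specific to Clone 35.

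Of 18 imprinted genes tested, which are read from 1 parental copy in many tissues, 3 were specific and lower, beside 2.44% of all genes. *NDN* (necdin) had no read in any of the 4 Clone 35 libraries, 20, 28, 27 and 32 reads in Clone 28 and 1, 1, 1 and 0 in Clone 39. Set against a floor of 3 counts over the group, *NDN* was at least 46-fold lower in Clone 35 than in Clone 28, and no fold is given against Clone 39, which was near the floor as well. Its call against Clone 39 rests on 0 against 3 reads, and *NDN* lost its call as specific in 13 of 21 other settings, with DESeq2, without the block and without any 1 Clone 35 library among them, and in dTAG-13. Its neighbour *MKRN3*, named after its values were seen, was at 25.6 CPM in Clone 35 and 22.7 in Clone 39 and did not pass that test, and at 6.62 in Clone 28. At these imprinted neighbours Clone 28 was therefore the clone apart, higher for *NDN* and lower for *MKRN3*. *GRB10*, an adaptor of insulin receptor signalling, stood at 163 to 180 CPM in Clone 35 against 207 to 234 in the other 8 libraries, and *KCNQ1*, a potassium channel, at 25.0 to 29.0 against 36.2 to 59.1.

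Stress and metabolic lists gave few genes. Of 20 heat shock genes, *CRYAB*, *BAG3* and *DNAJB1*, all chaperones or their partners, were higher, beside 1.97% of all genes, with *CRYAB* at 5.49 to 7.28 CPM against 2.73 to 4.75 in the other libraries. *BAG3* (0.20 and 0.36) and *DNAJB1* (0.17 and 0.31) differed less, though without overlap, and all 3 were again specific in dTAG-13. Without the replicate block 1 heat shock gene was specific, and by DESeq2 none was, of the 3 called by edgeR. Of 31 hypoxia and glycolysis genes, *NDRG1* and *HK2* were higher and *ADM* lower, beside 1.97% and 2.44% of all genes. *HK2* (hexokinase 2) stood at 31.1 to 38.1 CPM against 24.8 to 30.6 in Clone 28 and 12.4 to 20.4 in Clone 39. Without the replicate block none of these 3 genes was specific. Of 19 circadian clock genes, *PER1* was higher and *CRY1* and *PER3* lower, beside the same shares, and *PER1* was not specific in dTAG-13. The fit with no block called 1 of the 3. *ATP7B*, a copper exporter, was the only specific gene of 10 metallothionein and copper genes (56.8 CPM against 38.2 and 41.1), beside 1.97% of all genes higher. The other lists gave 1 gene in a direction: of 21 integrated stress response genes *DDIT4* was higher and *XPOT* lower, and *MVK* of 24 cholesterol synthesis genes, *PARD3B* of 22 tight junction and polarity genes and *RBX1* of 10 genes of the degron machinery were lower. Of all genes 1.97% were specific and higher and 2.44% lower, or 4.4% in either direction. The shares of the cholesterol (4.17%) and polarity (4.55%) lists were close to the latter. *DDIT4*, *PARD3B* and *RBX1* were not specific in dTAG-13, and *DDIT4* lost its call in 14 of 22 other settings. The log2 differences of the 5 genes from Clone 28 lay between −0.37 (*MVK*) and 0.28 (*DDIT4*).

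**Figure D2:**
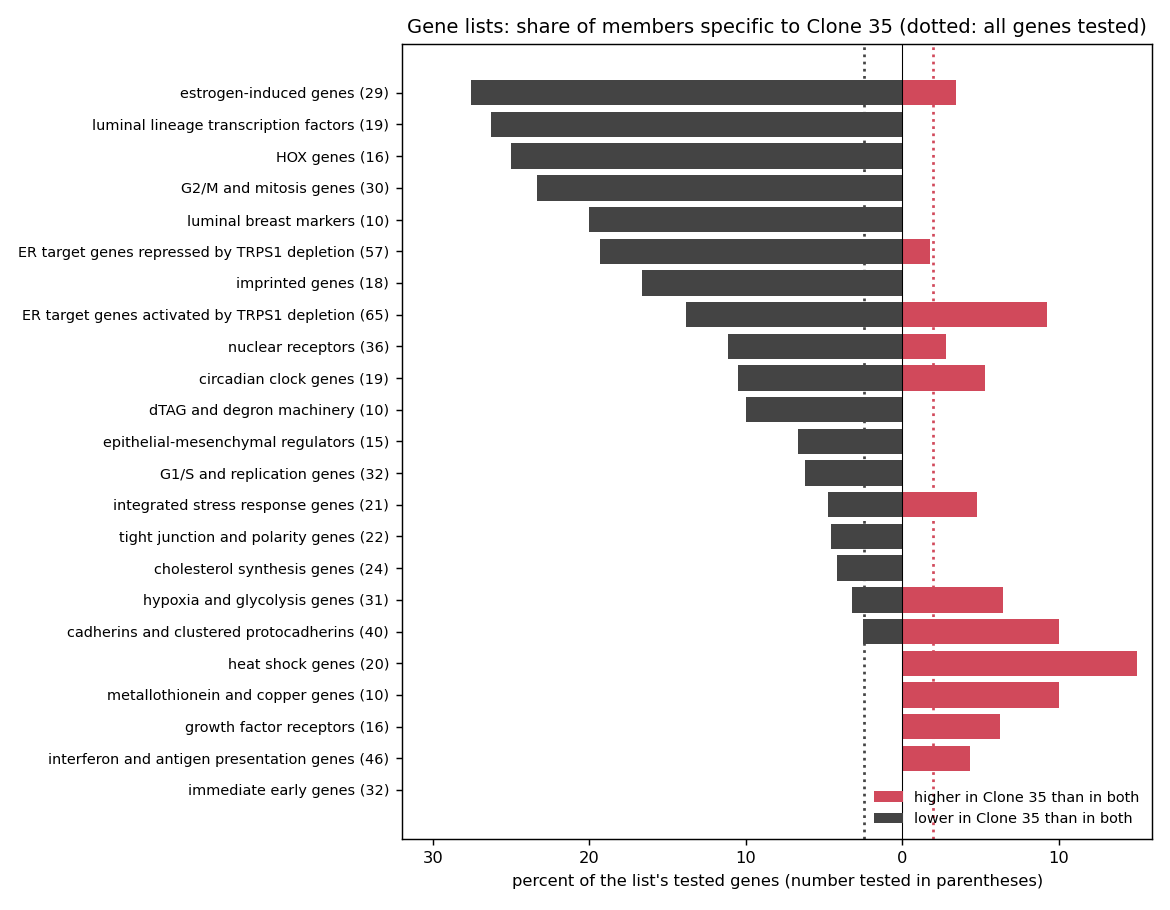
The plot of list shares gives, for each gene list with 10 or more tested genes, the percentage of its tested genes that were specific to Clone 35, higher and lower drawn to the right and left of 0, with dotted lines at the shares over all genes (1.97% and 2.44%). The bars for lower genes are longest for the estrogen-induced list (8 of 29), and the heat shock list has the longest bar for higher genes (3 of 20, of which DESeq2 called 0).

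**Figure D3:**
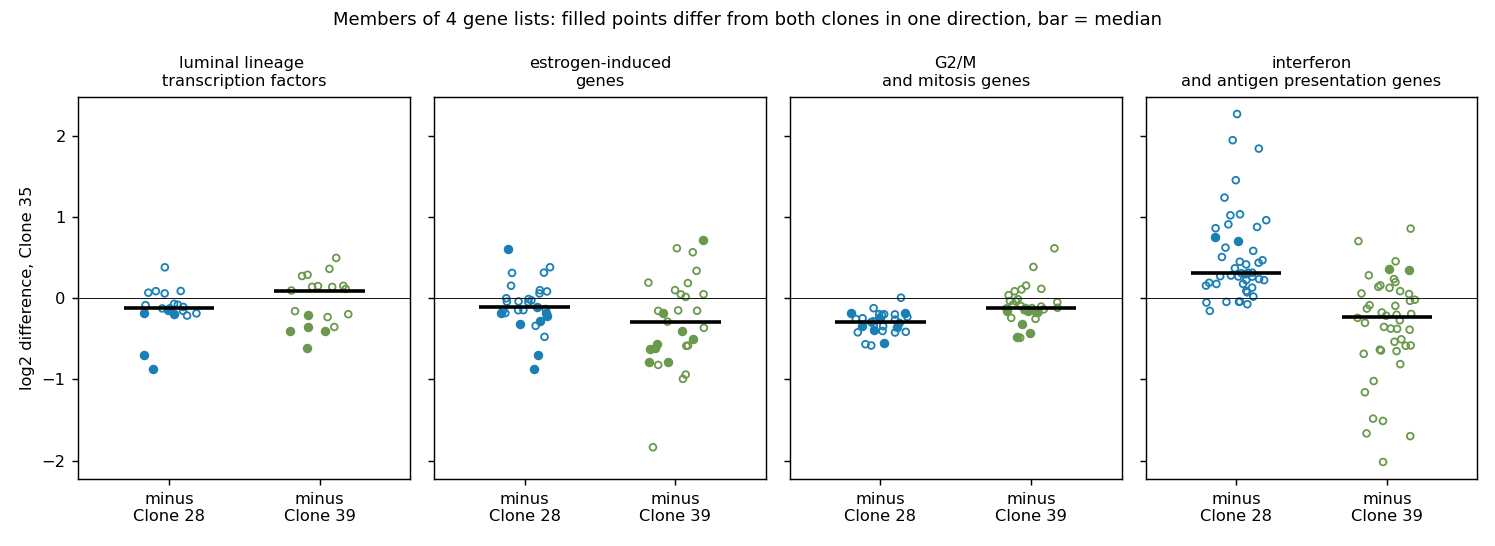
The plot of list members gives the log2 difference of Clone 35 from Clone 28 and from Clone 39 in columns, with 1 point for each tested gene of 4 lists (luminal transcription factors, estrogen-induced, G2/M and interferon), filled where the gene is specific to Clone 35, and a bar at each median. Interferon genes lie mostly above 0 against Clone 28 (24 called) and below 0 against Clone 39 (20 called), whereas most G2/M genes lie below 0 against Clone 28 (24 called).

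Runs of neighbouring genes were sought with a running median over 31 genes in chromosome order, asking for 10 or more windows past 0.2 on the log2 scale on the same side of both other clones. In Clone 35, 34 of 20457 windows (0.166%) were past this limit as lower and none as higher, and they formed 2 segments with 33 genes. By the same search Clone 28 had 10 segments with 411 genes and Clone 39 had 19 with 1639. The segments were found in these values and carry no test.

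The segment on chromosome 12 (53973126 to 54056030) is the part of the *HOXC* cluster from *HOXC11* to *HOXC4*. *HOX* genes encode homeodomain transcription factors of body position and are used in adult tissues as well. Over its 12 genes the median log2 difference was −0.33 from Clone 28 and −0.57 from Clone 39, and in dTAG-13 −0.22 and −0.53. *HOXC6* stood at 160, 151, 148 and 135 CPM in Clone 35, at 179 to 199 in Clone 28 and at 225 to 289 in Clone 39. Each Clone 35 library was below all others, as it was for *HOXC9* (42.2 to 47.7 CPM against 55.7 to 66.9). *HOXC4* was at 105, 94.1, 82.6 and 73.9 CPM in Clone 35, overlapped Clone 28 (102 to 123) and lay below Clone 39 (161 to 219), and *HOXC5* was at 3.87 to 6.44 CPM against 5.92 to 10.0 and 8.95 to 16.5. *HOXC8* (−0.07) and *HOXC10* (−0.11) did not pass the test against Clone 28. The transcripts of this cluster overlap, so reads can be shared among *HOXC4*, *HOXC5*, *HOXC6* and *HOXC9*. Among all 16 *HOX* genes tested these 4 were the specific ones, beside 2.44% of all genes lower, and without the replicate block 2 were. *HOXC5* was not specific in dTAG-13 (log2 0.10 against Clone 28).

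The genes on the opposite strand of the cluster gave another order, with the limit that reads of the 2 strands may have been counted together. *HOXC-AS2* was at 20.1 CPM in Clone 35, below Clone 28 (27.2) and above Clone 39 (13.4), and *HOXC-AS3* at 40.6 against 48.5 and 33.5. *MIR196A2*, the microRNA gene between *HOXC10* and *HOXC9*, was at 2.27 CPM against 3.29 in Clone 28, where it did not pass the test, and 5.98 in Clone 39 (log2 −1.35). It lies inside *HOXC6* on the same strand, so its reads cannot be told from those of *HOXC6*. Its mature product, shown because it is a known repressor of *HOX* transcripts, has the same sequence from *MIR196A2* and from *MIR196A1* on chromosome 17, and its seed (bases 2 to 8) is in capitals.
hsa-miR-196a-5p, chr12:53991762-53991783, plus strand: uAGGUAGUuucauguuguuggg
The *HOXC* segment also lies inside a longer run on chromosome 12 (53531752 to 103953931, 353 genes) in which Clone 35 was lower than Clone 28 alone, with medians of −0.29 against Clone 28 and −0.03 against Clone 39. Its value of −0.33 against Clone 28 is thus close to that of its surroundings, and its value of −0.57 against Clone 39 is not. The segment was not found without Clone 39 replicate 2.

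**Figure D4:**
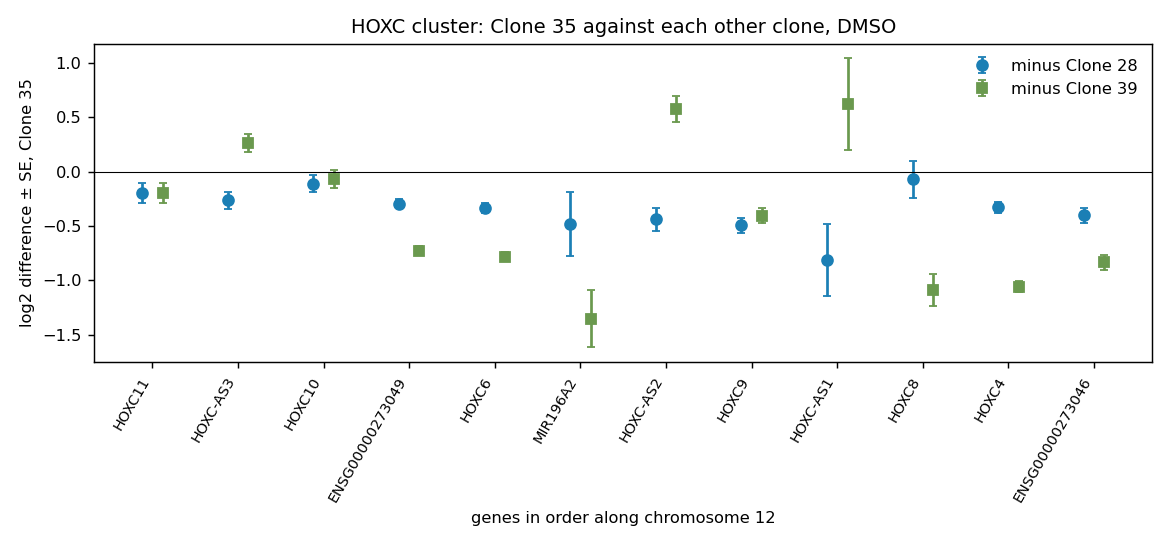
The plot of the *HOXC* genes gives the log2 difference of Clone 35 from Clone 28 and from Clone 39 for each of the 12 genes of the segment in chromosome order, with bars of 1 standard error. The plus-strand genes lie below 0 in both contrasts, with *HOXC4* at −0.33 and −1.06, and the antisense genes *HOXC-AS1*, *HOXC-AS2* and *HOXC-AS3* lie above 0 against Clone 39.

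The segment on chromosome 1 (228487382 to 229305894) is the array of 5S ribosomal RNA genes, transcribed by RNA polymerase III, and 17 of its 21 genes are annotated *RNA5S* copies. Of these copies, each of 119 bases, 16 have the same sequence in GENCODE 44 (*RNA5S9* differs), and reads from them cannot be assigned to 1 copy. The segment medians were −0.52 against Clone 28 and −0.61 against Clone 39, and *RNA5S4*, *RNA5S8* and *RNA5S15* met the rule for single genes. The libraries overlapped: the segment's level, taken as the median over its genes of log2 CPM less the gene's mean over the 12 libraries, was 0.535, −0.178, −0.909 and −0.952 in Clone 35 replicates 1 to 4, spanning a wider range than the differences, and 1.062 in Clone 28 replicate 1. In dTAG-13 the median against Clone 28 was 0.21, the opposite sign, and Clone 35 replicate 2 there reached 1.893. The share of all counts on ribosomal RNA genes moved with this, at 0.517%, 0.295%, 0.189% and 0.184% in the Clone 35 DMSO libraries and 0.921% in that dTAG-13 library, and its part in the result was not tested.

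Small nucleolar RNA (snoRNA) genes, whose products guide modification of ribosomal RNA, behaved in a similar way. Of 187 tested, 25 (13.4%) were specific and lower in Clone 35, beside 2.44% of all genes. In dTAG-13 none of 190 was, beside 2.24% of all genes. Without Clone 28 replicate 1 the count was 12, without Clone 35 replicate 1 it was 8, without Clone 39 replicate 4 it was 11, and without the replicate block it was 0. The snoRNA share of counts was 0.294%, 0.241%, 0.191% and 0.193% in Clone 35 and 0.527%, 0.272%, 0.278% and 0.236% in Clone 28, highest in Clone 28 replicate 1.

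Runs were also sought in each contrast by itself, whatever the other contrast showed, and the longest held more genes than the segments above. The *RNA5S* and *HOXC* genes of those segments thus lie in runs of both contrasts. Against Clone 28 there were 7 runs with 702 genes (3.32% of the genes placed), which held 391 of the 2997 placed genes called in that contrast (13%). The 3 largest lie on chromosome 12 between 53531752 and 126749027 and were lower in Clone 35 by medians of 0.26 to 0.29. Their medians between Clones 28 and 39 were 0.21 to 0.24, so that Clone 28 stood apart there. Against Clone 39 there were 20 runs with 1747 genes (8.26%), which held 1309 of 7022 called genes (18.6%). On chromosome 17 (1420689 to 27293996, 343 genes) the median was 0.89 against Clone 39 and 0.01 against Clone 28, and on chromosome 3 (88149959 to 170860993, 427 genes) it was 0.53 and 0.04. DNA copy number was not analysed here, and a changed gene dose and a changed activity per copy cannot be told apart in these counts.

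The runs bear on which genes were specific to Clone 35. Of the 2392 tested genes inside a run of either contrast, with the 2 segments included, 107 (4.47%) were specific and higher and 121 (5.06%) specific and lower. Of the 18862 genes outside, 311 (1.65%) and 397 (2.1%) were. In these bulk cultures fewer cells transcribing a gene and less transcription per cell cannot be told apart either. Outside the 2 segments, a gene in such a run can pass one of the 2 tests with its neighbours and needs a difference of its own only in the other. Among the named genes *FGD5*, *APOD*, *TP63* and *PARP9* on chromosome 3, *VDR* and *KRT80* on chromosome 12 and *PER1* on chromosome 17 lie in runs against Clone 39. So do *KRT8* and *KRT18* on chromosome 12 and *GATA3* on chromosome 10, which were not specific. *TRPV4*, *MVK*, *XPOT*, *CRY1*, *PHLDA1* and *LINC02457* lie in the chromosome 12 runs against Clone 28. *CDH10*, *VCAN*, *WLS*, *LEF1*, *ADCY2*, *PPP1R9A* and *PGR* lie in none.

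**Figure D5:**
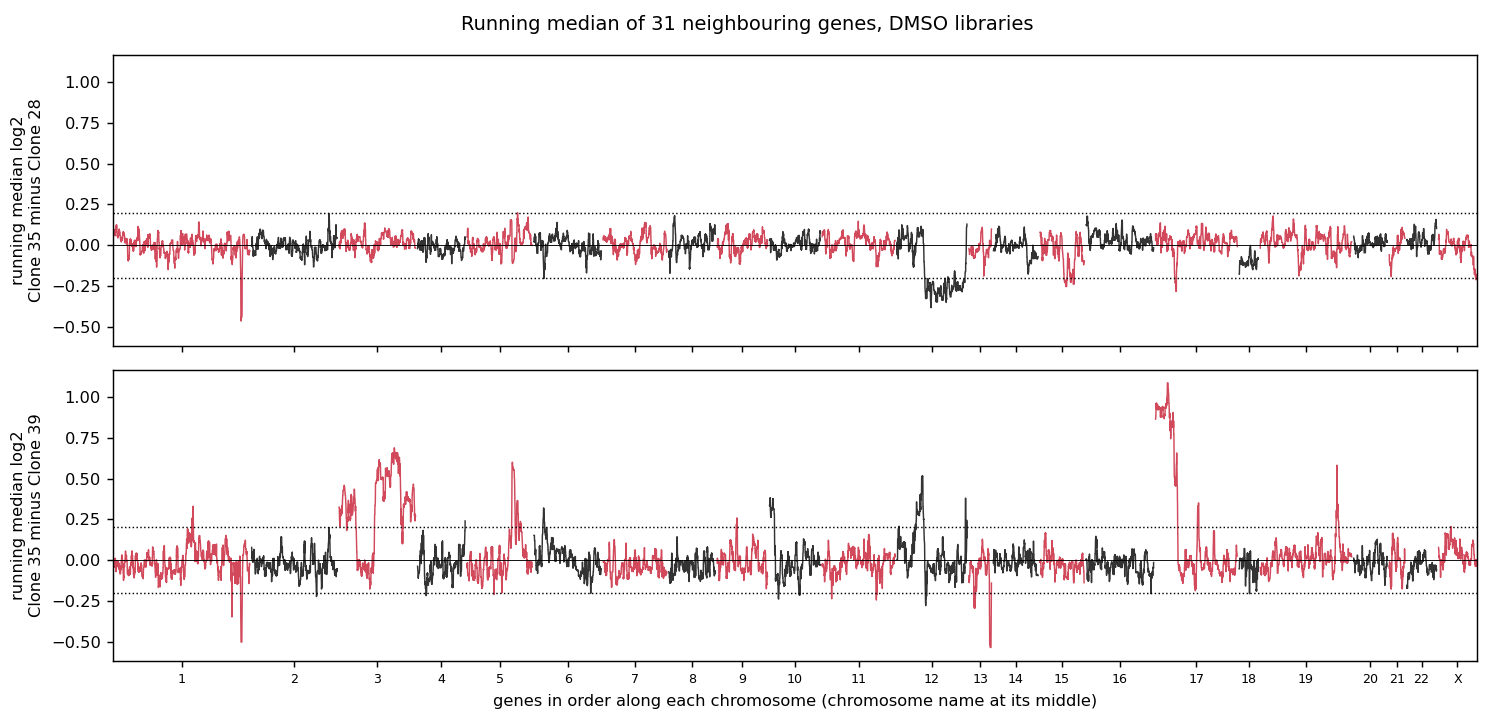
The plot of running medians gives the median log2 difference over 31 neighbouring genes along chromosomes 1 to X, for Clone 35 against Clone 28 above and against Clone 39 below, with lines at 0.2 and −0.2. The long dip on chromosome 12 (median −0.29 over its first 353 genes) is seen against Clone 28, the long rises on chromosomes 3 and 17 against Clone 39, and the narrow dip on chromosome 1 against both.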

How the data were processed

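Nascent RNA was measured by PRO-seq in 24 libraries, of which the 12 DMSO libraries of Clones 28, 35 and 39 were used for the main comparisons. The deposited table holds counts of reads per gene, which the authors made from reads aligned to hg38 and did not normalize. Per the labels, processing used cutadapt 1.8.1, Bowtie2 2.4.4 and SAMtools 1.9. The strand setting of the counting is not given in the sources used here. Positions and gene types were matched to GENCODE 44 for 60463 of 60605 gene identifiers.

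Genes passing filterByExpr (minimum count 10) were kept (21254), scaled by TMM and fitted with edgeR 4.0.16 (R 4.3.3, limma 3.58.1) using robust quasi-likelihood, with clone and replicate number as terms and 6 residual degrees of freedom. The standard errors given are the log2 difference divided by the square root of its F statistic. P-values were adjusted by the Benjamini-Hochberg method, with a threshold of 0.1. The same fit was made on the dTAG-13 libraries (21529 genes). The replicate number is a block because same-numbered cultures were handled together, and deviations from the clone means correlated by 0.156 to 0.372 between same-numbered libraries of different clones (12 pairs) and by −0.331 to 0.276 between others (36 pairs). No 2 DMSO libraries of the same clone matched within counting noise (chi-square per degree of freedom 1.58 to 5.65). Segments used 21147 genes of at least 1 CPM.

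In simulated counts (20991 genes), 57.6% of genes changed by 0.5 and 91% of those changed by 1 on the log2 scale were recovered as specific, with 2 false calls. Named genes were the 12 in each direction with the largest smaller difference among protein-coding genes of at least 1 CPM whose libraries did not overlap and whose direction was the same in dTAG-13, up to 4 specific genes of each list and of each segment, and *TRPS1* and the luminal markers, of which 2 genes are not reported here. The members and lists were chosen with earlier results of these data known. Alternatives were DESeq2 1.42.0, other scalings, filters, thresholds, windows, no block, subsets of replicates and leaving out each library. The authors' lists of ER target genes were used for membership only.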

Additional observations from a re-analysis of the deposited data

Results flagged for a closer look

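For every named gene the 4 libraries of each clone were checked for a single library far from the other 3, by the gap to its neighbour as a share of the range of the group (Dixon's criterion). Of 266 groups 12 passed this limit, where chance alone gives 13.3, so such groups were no more frequent than chance gives.

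Within Clone 35, *TRPV4* was highest in replicate 4 (gap share 0.853) and *BAG3* in replicate 1 (0.86). Within Clone 28, replicate 1 was highest for *RNA5S15* (0.834) and *RNA5S8* (0.858) and lowest for *GRB10* (0.856), *MVK* (0.853) and *BAG3* (0.884). In the same clone *CDH10* was highest in replicate 2 (0.832). Within Clone 39, *LEF1* was highest in replicate 2 (0.873), *PER1* was highest (0.911) and *PDE4A* lowest (0.964) in replicate 3, and *PHLDA1* was lowest in replicate 4 (0.963). The Clone 28 libraries thus gave 6 of the 12. The 2 *RNA5S* values fall in the library with the largest shares of ribosomal RNA (0.72%) and snoRNA counts (0.527%) of the 12, and whether this moved them was not tested.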

How the results depend on the processing

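No call of a named gene turned its direction under any alternative run. Against 3006 and 7059 genes called against Clones 28 and 39 and 418 higher and 518 lower specific genes, DESeq2 gave 1102, 4083, 108 and 197. The fit without the replicate block, whose pairing is described with the methods, gave 996, 4561, 135 and 147. Replicates 1 and 2 alone gave 1471, 4311, 167 and 217, and replicates 3 and 4 alone 1507, 5093, 186 and 272. A log2 difference of at least 1 left 174, 806, 19 and 20. Without a filter on low counts 340 genes were lower, and among genes without an overlapping gene, a choice made after seeing the data, 113 were higher and 87 lower. All 282 specific genes without the block and 293 of the 305 by DESeq2 were among the 936. With library totals alone 54.2% of the genes called against Clone 28 were higher in Clone 35, where TMM gave 41.2%.

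Leaving out 1 library gave 2269 to 3107 genes against Clone 28, 5925 to 7207 against Clone 39, 299 to 434 higher, 388 to 490 lower and 1 to 3 segments. The 2 segments became 4 with a limit of 0.15, 1 with 0.3 and 0 with windows of 61 genes or with protein-coding genes alone. Among the 80 named genes that could lose a call, 49 kept it without the block and 57 by DESeq2. The causes were not tested. At these depths small differences are the limit: in simulated counts fewer changes of 0.5 than of 1 on the log2 scale were recovered.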

Other observations

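Several further differences of Clone 35, chosen after their values were seen, are given as values. A long noncoding RNA gene with no symbol, ENSG00000286385 (chromosome 13, 82778208 to 83102335, minus strand), stood at 15.5, 15.4, 12.4 and 12.3 CPM in Clone 35, at 1.78 to 4.21 in Clone 28 and at 1.63 to 4.02 in Clone 39. The groups were far apart, with log2 differences of 2.18 and 2.31, and in dTAG-13 of 2.30 and 2.91.

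On the minus strand of chromosome 15, 4 genes near each other were specific to Clone 35 in both treatments: ENSG00000259345, ENSG00000259447, ENSG00000259390 and *FSIP1*. ENSG00000259345 (38865322 to 39427195) stood at 275, 342, 250 and 236 CPM in Clone 35, at 102 to 147 in Clone 28 and at 37.4 to 49.6 in Clone 39. The 3 clones did not overlap there. *THBS1*, which encodes the matrix glycoprotein thrombospondin 1 and lies on the plus strand (39581079 to 39599466), overlaps *FSIP1*, so that reads of the pair may have been counted together. *THBS1* had means of 378, 339 and 281 CPM in Clones 28, 35 and 39 (log2 differences −0.16 and 0.27).

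*TMEM132D*, a neuronal membrane protein gene, is counted among the genes lower in Clone 35 (adjusted p = 0.0802 and 0.0465, edgeR's quasi-likelihood test), and single libraries decide its value. It had 255, 303, 169 and 248 reads in Clone 35, but 2716 in Clone 28 replicate 2 and 2482 in Clone 39 replicate 2 beside 271 to 562 in the other libraries of those clones. In dTAG-13, Clone 35 had 303, 4192, 143 and 1871 reads, so its low level was not met again.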
